A study of Schizosaccharomyces pombe with 2 samples.

Results

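The ubiquitin and proteasome genes of the fission yeast Schizosaccharomyces pombe were taken as the genes whose platform symbol begins with rpn, rpt, pre, pup, pts, pam, mts, uba, ubc, ubp or ubx followed by a number, and whose probe set had a signal above 0 in both arrays. This gave 59 genes, each with 1 probe set, out of 2899 named S. pombe genes with a signal. Messenger RNA was measured in 2 h- strains with 1 array each: JP1225, the wild-type, and ST3479, a strain from which subtelomeres had been deleted, labelled SD5. Both were sampled during exponential growth at 32 °C in YES, a rich medium. The labels name no treatment and do not say which subtelomeres SD5 lacks. With 1 array per strain no test was possible, and every ratio below describes these arrays only.

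Ubiquitin is a small protein that is joined to other proteins by a relay of enzymes. An activating enzyme (E1) passes it to a conjugating enzyme (E2), and a ligase (E3) directs it to the target. Chains of ubiquitin bring a protein to the 26S proteasome, in which the 19S particle binds, unfolds and de-ubiquitinates it and the barrel-shaped 20S core cuts it. Deubiquitinases remove or trim the chains. In growing yeast this system removes cyclins, the anaphase inhibitor securin and misfolded proteins.

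The symbols covered the system unevenly, and a pair of them lay outside it. Of 68 symbols in the reference annotation (assembly ASM294v3) that follow the rule, 58 were members, and 10 were not, among them the 20S genes pre1, pre4, pre5 and pre9 and the lid genes rpn501 and rpn502. The other member, ubp13, is now called pan2, whose product shortens poly(A) tails. The product of pam17 is, in budding yeast, a part of the motor that pulls proteins into mitochondria. The remaining 57 genes encode 27 subunits of the 26S proteasome, 1 E1, 11 E2 enzymes, 15 ubp proteases and 3 proteins with a UBX domain. In bulk RNA such as this, fewer cells with a transcript and less transcript per cell cannot be told apart.

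The deposited signals of SD5 were mostly lower, with a median of 0.869 times the wild-type signal, and ratios were centred on that shift (-0.20 on the log2 scale). Of 2868 named genes with a ratio, 129 had a brighter deposited signal in SD5. Background, the 95th percentile of 79 probe sets with no S. pombe target, was a signal of 17.7 for the wild-type array and 26.6 for the SD5 array. The strain labels were checked on 4 genes of chromosome ends, nhe1 (sod2 on the platform), gal1, gal7 and gal10, whose signals were 212 to 2611 in wild-type cells and 1.49 to 19.3, below background, in SD5. The mating type was not checked, since 5 genes of M cells, the h- type, and 3 genes of P cells were all above background in both arrays and levels of different probe sets cannot be compared. All members were above background in both arrays. The dimmest was ubc12, at 6.32 times background in the wild-type and 3.57 times in SD5.

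Most of the 59 members had close levels in both strains, and the gene furthest from equal was the proteasome ATPase gene rpt5. The median log2 ratio of SD5 over wild-type was 0.014 over the 59 members and 0.00066 over all 2868 named genes with a ratio. No member was 1.5-fold lower (0.523% of all named genes were) or 1.5-fold higher (0.279%), 0.802% in either direction. None was 2-fold lower (0.244%) or 2-fold higher (0.0349%) either, 0.279% in either direction. A fold of 1.2 was reached by 2 members that were lower in SD5, rpt5 and the deubiquitinase gene ubp12, against 3.17% of all named genes. It was reached by no member that was higher, against 2.55%. In either direction 2 of 59 members were past 1.2-fold, against 5.72% of all named genes, so the count of members was near the background. Ratios lay within 1.1-fold of equal for 52 of the 59 members, and for 78.6% of all named genes. Above a mean signal of 1000 the share was 90.7% of 43 members and 89.7% of 1560 named genes. At or below 1000 it was 81.25% of 16 members and 65.2% of 1308 named genes. Above 0 lay 32 members and below 0 27, near the even split of all named genes (50.4% above and 49.6% below). The side of 0 is relative to the centring: before it, 1 member, ubp10, lay above 0.

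**Figure D1:**
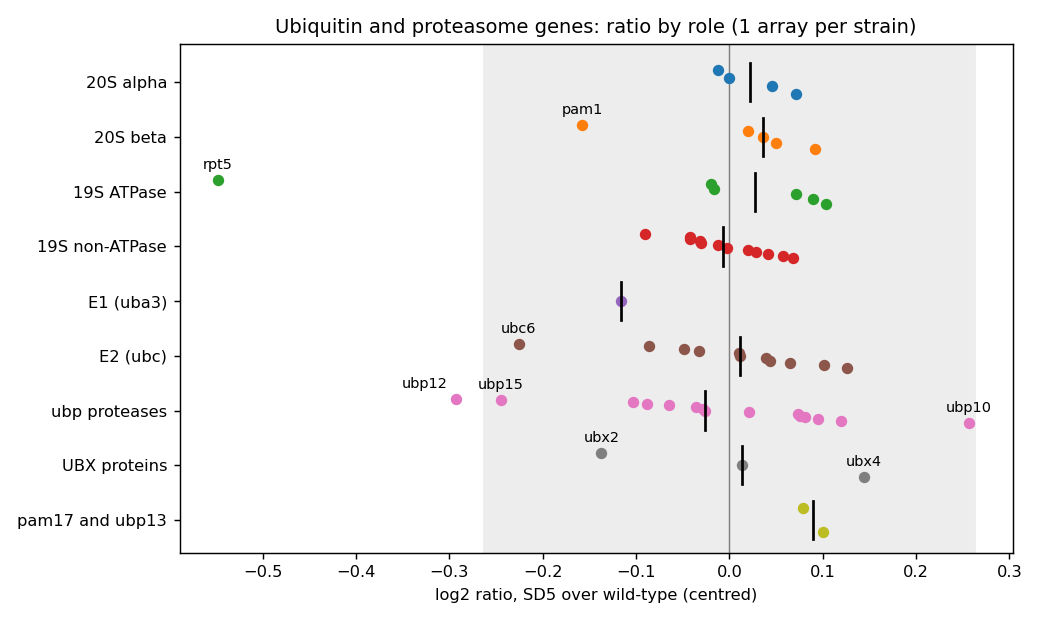
Log2 ratio of SD5 over wild-type for each of the 59 members (points), grouped by the role of the product, with the median of each group (black bar) and the range within 1.2-fold (grey). Only rpt5 at -0.55 and ubp12 at -0.29 lie outside the grey range, and ubp10 at 0.26 lies just inside its upper edge.

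The 20S core was represented by 9 of its genes, and 8 of them were within 1.1-fold of equal. Of all named genes 78.6% were, and of those with a mean signal above 1000, as these 9 had, 89.7%. In the core, rings of alpha subunits gate the entrance and rings of beta subunits hold the cutting sites. The alpha subunit genes pre6, pre8, pre10 and pup2 had wild-type signals of 3909 to 6724 and SD5 signals of 3394 to 6137. Their log2 ratios ran from -0.013 for pre6 to 0.071 for pup2, a span of 0.084. The robust SD (the scaled median absolute deviation) of probe sets of like signal was 0.053 for pre6, pre8 and pup2 and 0.066 for pre10. Here and below, distances from genes of like signal use all such S. pombe probe sets, with or without a gene name. None of the 4 genes lay 2 robust SDs from the median of genes of like signal.

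Of the 5 beta subunit genes, 4 had ratios a little above 0 and pam1 was lower. The gene of the trypsin-like cutting subunit, pup1, had 6701 in wild-type cells and 5968 in SD5 (log2 ratio 0.036). That of the chymotrypsin-like subunit, pts1, had 6650 and 5982 (0.050), and that of the caspase-like subunit, pre3, 4924 and 4559 (0.092). The genes of all these catalytic subunits were therefore within 1.1-fold of equal. The gene pup3, of a subunit that does not cut, had 3285 and 2893 (0.020). The gene pam1, also of a non-catalytic subunit, had 4160 and 3240, a log2 ratio of -0.16 (1.12-fold lower). It was the third lowest of the 146 named genes of like signal, 2.70 robust SDs below the median of probe sets as bright as it. This scale is a spread between probe sets in the same pair of arrays and not a replicate error.

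The 19S particle opens the core with a ring of 6 ATPases, rpt1 to rpt6, which pull the substrate in. The gene rpt5 had a signal of 696 in wild-type cells and 413 in SD5, so its ratio was -0.55, or 1.46-fold lower. It was 17th lowest of all 2868 named genes and the lowest of the 147 of like signal. It lay 4.52 robust SDs (of 0.12) below the median of probe sets as bright as it. Its probe set was 39.3 times background in the wild-type and 15.5 times in SD5, so the background did not set this value. The other 5 ATPase genes did not share it, but their probe sets were brighter. The robust SD of probe sets of like signal was 0.053 to 0.066 for them. The gene rpt1 had 3579 in wild-type cells and 3073 in SD5 (-0.017), and rpt2 had 4844 and 4152 (-0.019). The gene rpt3 had 3463 and 3160 (0.071), rpt4 had 5055 and 4716 (0.10), and rpt6 had 4935 and 4561 (0.089). The 5 spanned 0.12 on the log2 scale, while rpt5 lay 0.53 below the nearest of them, rpt2.

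The labelling used here starts at the poly(A) tail, so a probe set far from it reads less of shorter labelled RNA. Control probe sets gave a ratio of 3′ to 5′ signal of 2.18 in wild-type cells and 2.33 in SD5 for actin, 1.46 and 1.5 for TFIID, and 2.03 and 1.93 for RIP1. The controls differed little between the arrays and not all in the same direction. Their part in the ratio of rpt5 was not tested, and rpt5 had no other probe set to compare.

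The 12 non-ATPase genes of the 19S particle were the least spread of the roles with over 10 genes. All lay within 1.1-fold of equal, from -0.091 to 0.068, against 78.6% of all named genes. All 12 also had bright probe sets, at 1529 to 6576 in the wild-type. Of named genes with a mean signal above 1000, 89.7% lay within 1.1-fold. The large scaffold subunits of the base, mts4 (Rpn1) and rpn2, had 3517 and 2247 in the wild-type and 2966 and 1896 in SD5, and both had a ratio of -0.042. Receptors that catch ubiquitin chains are encoded by rpn10, rpn1301 and rpn1302. The gene rpn10 had 4954 and 4479 (0.058) and rpn1301 had 3401 and 2950 (-0.0022). Its paralog rpn1302 had 1529 and 1248 and the lowest ratio of the group (-0.091), less than 1 robust SD (0.97) below genes of like signal. The paralogs thus lay on the same side of 0, and their difference of 0.088 was about the size of the spread of probe sets as bright as rpn1302 (0.085).

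The lid of the 19S particle cuts the ubiquitin chain off before the protein is degraded, by the metalloprotease Rpn11. The gene rpn11 had 2855 in wild-type cells and 2552 in SD5 (0.041), and its partner in the active dimer, rpn8, 4896 and 4337 (0.028). Structural lid subunits had ratios of -0.032 for rpn3 (2149 and 1825), -0.030 for rpn6 (6576 and 5593) and 0.068 for rpn7 (3611 and 3288). The last pair was rpn9 with 0.020 (5527 and 4868) and rpn12 with -0.012 (4149 and 3574). The copies of a further lid subunit gene, rpn501 and rpn502, share a probe set, which names neither of them alone. It had 8017 and 7179 (0.044), so the summed signal of the copies was also close to equal. The small lid subunit gene dss1, which the symbol rule does not take in, stood furthest out in the lid, with 2434 and 2516 (0.25), and is described with the helpers of the proteasome. Over the 26 proteasome members other than rpt5, the ratios had a median of 0.020 and an SD of 0.060 between genes, from -0.16 (pam1) to 0.10 (rpt4).

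**Figure D2:**
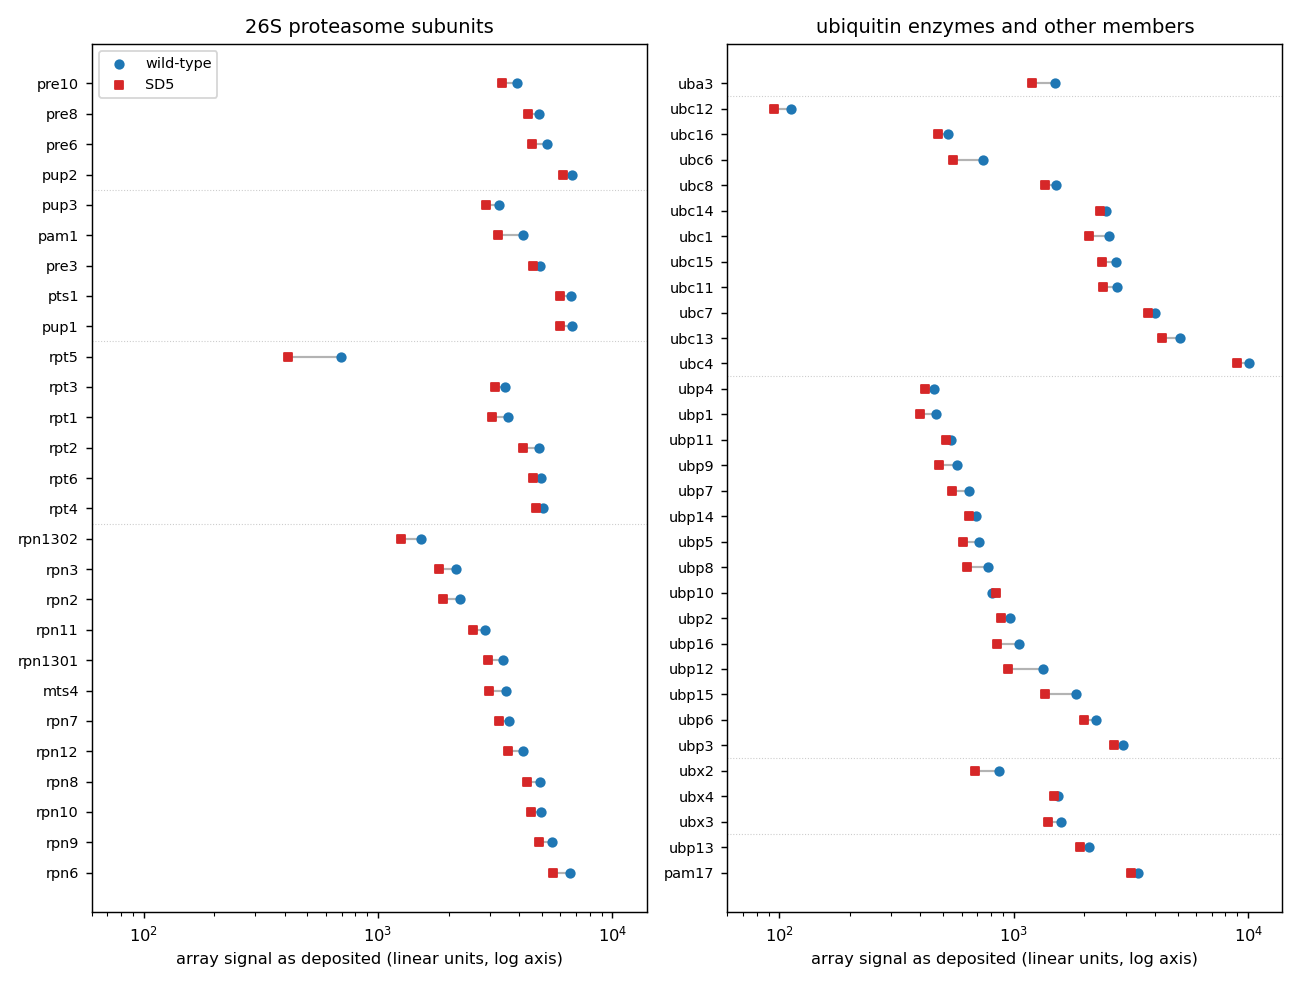
Deposited signal of each member in the wild-type (circles) and SD5 (squares) on a log axis, with proteasome subunits on the left and the other members on the right; dotted lines part the roles in the order of the text. SD5 lies to the left for every gene but ubp10, since the ratio before centring had a median of 0.869, and the gap is widest for rpt5 (696 and 413).

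The enzymes that load ubiquitin and its relatives were represented by 1 E1 gene and 11 E2 genes. None of them reached 1.2-fold, which was near the share of all named genes that did so in either direction (5.72%). The E1 gene, uba3, encodes the catalytic subunit that activates Nedd8, a ubiquitin-like protein that switches on cullin ligases. It had 1493 in wild-type cells and 1197 in SD5 (log2 ratio -0.12). The E2 of the same relay, ubc12, had 112 and 94.9 (-0.033), in the class of dim probe sets with a robust SD of 0.32. Neither gene of the Nedd8 relay stood outside the spread of genes of like signal (1.26 and 0.21 robust SDs below their medians).

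The lowest E2 gene was ubc6, whose product works in the degradation of misfolded proteins at the endoplasmic reticulum. It had 738 in wild-type cells and 548 in SD5, a ratio of -0.23 (1.17-fold lower) and 1.60 robust SDs below genes of like signal. The E2 gene ubc7, which serves the same pathway, lay on the other side of 0, with 3994 and 3721 (0.10). The pair differed by 0.33 on the log2 scale, and lay on opposite sides of 0 with centring, while without it both were below 0 (-0.43 and -0.10).

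E2 genes of the cell cycle and of DNA damage tolerance were close to equal. The product of ubc11 works with the anaphase-promoting complex, and its gene had 2747 and 2402 (0.0099). The general E2 gene ubc4, with the brightest probe set of the members, had 10058 and 8978 (0.039). The gene ubc13, whose product builds chains that serve DNA repair, had 5126 and 4305 (-0.048), and mms2, its partner, had 6371 and 5645 (0.029). The remaining E2 genes were ubc1 (-0.086), ubc15 (0.011), ubc8 (0.043), ubc16 (0.065) and ubc14 (0.13), the highest of the group with 2468 and 2340. Of the 11 E2 genes 7 lay above 0 (50.4% of all named genes did), and the median of the 11 was 0.011.

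The 15 ubp proteases, which cut ubiquitin from proteins, were the most spread of the roles with over 10 genes. Their ratios ran from -0.29 to 0.26 with an SD of 0.14 between genes and a median of -0.026. Within 1.1-fold of equal lay 12 of 15, against 78.6% of all named genes. The genes outside were ubp12 and ubp15 on the low side and ubp10 on the high side. Most ubp probe sets were dim, with a median wild-type signal of 775. Their robust SD of 0.15 was near the 0.13 of named genes with a mean signal at or below 1000. The ranking of roles by spread takes no account of brightness.

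The gene ubp12, whose product is known to associate with the COP9 signalosome, had 1329 in wild-type cells and 942 in SD5. That is a ratio of -0.29 (1.22-fold lower), 2.75 robust SDs below genes of like signal and the fourth lowest of 138 named ones. The gene ubp15 had 1852 and 1357, a ratio of -0.25 (1.19-fold lower). It lay 2.67 robust SDs below and was the second lowest of 128 named genes of like signal. The gene ubp10 had 811 and 842, so it was the only member with a brighter deposited signal in SD5. Its ratio of 0.26 (1.19-fold higher) lay 2.63 robust SDs above genes of like signal, the third highest of 138 named ones. Among the members, 4 lay at least 2 robust SDs below (rpt5, ubp12, pam1 and ubp15) and 1 above (ubp10), against 4.01% and 3.84% of all named genes.

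The other 12 ubp genes lay between -0.10 and 0.12. They include ubp6, whose product trims chains on the proteasome itself (2254 in wild-type cells and 1987 in SD5, 0.021), and ubp14, whose product recycles free chains (692 and 642, 0.095). The gene ubp8, of the enzyme that takes ubiquitin off histone H2B within the SAGA complex, had 775 and 633 (-0.089). The genes ubp4, ubp5 and ubp9, whose products are sent to endosomes, the Golgi and other sites by partner proteins, had 0.074, -0.029 and -0.065. The rest were ubp16 (-0.10), ubp7 (-0.036), ubp1 (-0.026), ubp2 (0.076), ubp3 (0.081) and ubp11 (0.12). None of these 12 lay 2 robust SDs or more from genes of like signal.

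Proteins with a UBX domain dock on Cdc48, the ATPase that pulls ubiquitinated proteins out of complexes and membranes. The genes ubx2 (862 in wild-type cells and 681 in SD5, -0.14), ubx3 (1591 and 1395, 0.014) and ubx4 (1546 and 1484, 0.14) lay on both sides of 0. Their spread, an SD of 0.14 over 3 genes, came from single probe sets. No gene of the 3 reached 1.2-fold (5.72% of all named genes did in either direction). The members outside the system, pam17 (3384 and 3150, 0.10) and ubp13, now pan2 (2086 and 1913, 0.078), were also close to equal. Without them the median of the other 57 members was 0.011.

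The spread of the members' ratios varied with the brightness of the probe set much as that of all named genes did, while their correlation with signal was higher. The 43 members with a mean signal above 1000 had a robust SD of 0.075 and the 16 dimmer members one of 0.15. For all named genes these were 0.075 over 1560 genes and 0.13 over 1308. The medians were 0.020 for the bright members and -0.031 for the dim ones, against 0.012 and -0.021 for all named genes. Across the 59 members the ratio and the mean log2 signal had a Pearson correlation of 0.27 (Spearman 0.26), and across all 2868 named genes 0.11 (0.17). These correlations are across genes that share the same arrays, which are not independent replicates. The ubp genes had a median wild-type signal of 775 and the proteasome genes one of 4160. The outer ubp genes were not all dim, since ubp12 (1329) and ubp15 (1852) were among the bright members and ubp10 (811) among the dim ones.

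**Figure D3:**
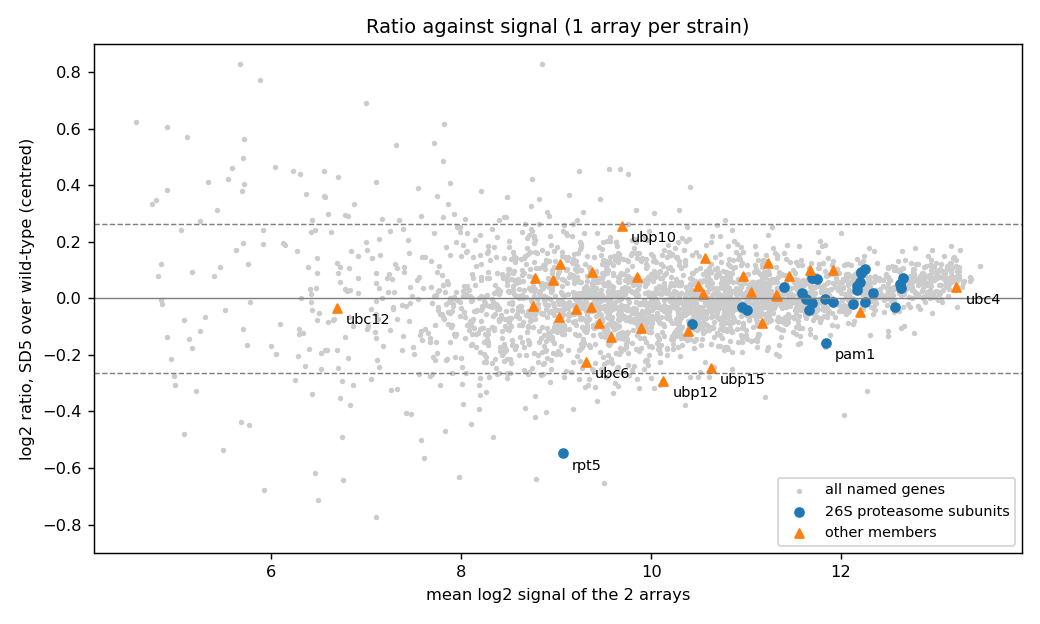
Log2 ratio of SD5 over wild-type against mean log2 signal for all named genes (grey; 8 genes beyond 0.9 are not drawn), proteasome subunits (circles) and other members (triangles); dashed lines mark 1.2-fold. The cloud narrows to the right, and rpt5 lies below genes of like signal while the other proteasome subunits stay near 0.

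Most members lay far from the chromosome ends, in the order of protein-coding genes in the reference. Of the 59, 3 lay within 100 genes of an end: ubp12, 43rd from an end of chromosome III, ubc16, 61st on chromosome II, and rpt1, 65th on chromosome II. The ratio of ubp12 was low (-0.29), and those of ubc16 (0.065) and rpt1 (-0.017) were not. The gene rpt5 was 875th from the nearer end of chromosome I. The medians were 0.020 for 21 members on chromosome I, 0.039 for 25 on chromosome II and -0.00073 for 13 on chromosome III.

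Several members are neighbours, and all of these lay within 1.1-fold of equal, as did 78.6% of all named genes. The genes rpn3 (-0.032) and ubc4 (0.039) are adjacent, and ubp7 (-0.036) and rpn6 (-0.030) have 2 genes between them, as do rpn1301 (-0.0022) and rpn12 (-0.012). On chromosome III, ubp16 (-0.10) lies with 1 gene between it and rpn8 (0.028), and 3 genes between it and rpt4 (0.10). The genes ubp1 (-0.026) and rpn1302 (-0.091) also have 3 genes between them. Neighbours thus lay on the same side of 0 in 3 of these 6 pairs with centring. Without it all of these genes were below 0.

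Genes of the system under other names gave a similar picture. Of 93 such genes with a ratio, taken from 9 lists, 1 was at least 1.2-fold lower (3.17% of all named genes were) and 1 at least 1.2-fold higher (2.55%), and none was 1.5-fold apart (0.802%). Their median log2 ratio was -0.015, and 77 of the 93 (82.8%) were within 1.1-fold of equal, against 78.6% of all named genes. The gene at least 1.2-fold lower was dsc1, of the E3 ligase subunit of the Golgi complex that triggers cleavage of the sterol regulator Sre1. It had 410 in wild-type cells and 254 in SD5 (-0.49), 3.27 robust SDs below genes of like signal. Other subunits of that complex had ratios of -0.11 (dsc2), 0.12 (dsc3), -0.085 (dsc4) and -0.020 (dsc5, ucp10 on the platform). The gene at least 1.2-fold higher was apc11, of the RING subunit of the anaphase-promoting complex, with 884 and 953 (0.31), 3.35 robust SDs above genes of like signal.

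Genes of ubiquitin and of the enzymes that start the relay were close to equal, apart from ubi3. The list of ubiquitin and ubiquitin-like proteins had 8 genes with a ratio, from urm1 (-0.020) to hub1 (0.094) and ubi3 (0.14), and a median of 0.068. Of the 8, 7 lay within 1.1-fold of equal, against 78.6% of all named genes. The gene ubi3 lay outside, 1.90 robust SDs above genes of like signal. Its 2 probe sets had 0.15 and 0.14, and the suffix of the second marks probes that can match several genes. The polyubiquitin gene ubi4 had 10037 and 9289 (0.091), from a probe set whose suffix marks probes that can match several genes. The ubiquitin fusion genes ubi1 (9158 and 7938, -0.0030) and ubi2 (uep1 on the platform, 9943 and 9123, 0.079) encode ubiquitin joined to a ribosomal protein. The main ubiquitin E1 gene, uba1 (ptr3 on the platform), had 1867 and 1650 (0.025). The 6 E1 and E2 genes under other names lay within 1.1-fold of equal, from rad31 (-0.031) and rhp6 (-0.019), the E2 gene of histone H2B ubiquitination, to hus5 (0.040). The products of rad31 and hus5 load SUMO, another ubiquitin-like protein.

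Among helpers of the proteasome, 4 genes had a ratio, and the outer ones lay on opposite sides of 0. The gene ump1, of the chaperone that matures the 20S core, had 3393 in wild-type cells and 2634 in SD5 (-0.16), 2.67 robust SDs below genes of like signal. The gene dss1, of the small lid subunit also called Sem1 or Rpn15, had 2434 and 2516 (0.25), 3.34 robust SDs above. The genes ecm29 (-0.059) and cut8 (-0.039), of a proteasome-binding protein and of the factor that holds proteasomes at the nucleus, lay between. Receptors and the Cdc48 segregase ran from ufd1 (2185 and 1707, -0.15) and mud1 (-0.085) to npl4 (0.022) and cdc48 (4931 and 4601, 0.10), with a median of -0.0052 over 8 genes. Cdc48 and its cofactors Ufd1 and Npl4 work as 1 machine, and their genes lay on both sides of 0, which is relative to the centring. None lay 2 robust SDs from genes of like signal (-1.77 for ufd1, 0.45 for npl4 and 1.44 for cdc48).

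The E3 ligase lists differed little in their medians. The list of SCF and cullin genes had the lowest, -0.071 over 21 genes. In it pcu4 (now cul4, 397 and 287, -0.26) and pof10 (1044 and 761, -0.25) were lowest and pof5 (0.074) and pof3 (0.072) highest. Below 0 lay 16 of the 21, against 49.6% of all named genes and 729 of 1308 with a mean signal at or below 1000. The side of 0 is relative to the centring, and 1 gene of the list lay at least 2 robust SDs below genes of like signal. No gene of the list reached 1.2-fold (5.72% of all named genes did in either direction), although pcu4 came to 1.1997-fold lower. The anaphase-promoting complex list had a median of 0.031 over 13 genes, from apc2 (-0.11) and cut4 (-0.094) to srw1 (0.25) and apc11. A further 2 genes of it, apc13 and mfr1, had no ratio. The signal of apc13 (28.2 and 19.8) was below background in SD5. Its ratio after flooring at background and centring came out above 0, so it gave no bound. The signal of mfr1, an activator used in meiosis, was below background in both arrays (4.39 and 19.6). The list of HECT and RING ligases had a median of -0.027 over 20 genes, with ubr11 (-0.13) next lowest to dsc1 and pli1 (0.21) and pub3 (0.20) highest. The COP9 signalosome, which takes Nedd8 off cullins, had a median of 0.025 over 6 genes, from csn3 (-0.041) and csn71 (-0.029) to csn1 (0.11) and csn2 (0.15). Other deubiquitinases and SUMO proteases had a median of 0.015 over 7 genes, with uch1 (-0.043) and otu1 (-0.030) lowest and ulp1 (0.025) and otu2 (1619 and 1683, 0.26) highest.

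**Figure D4:**
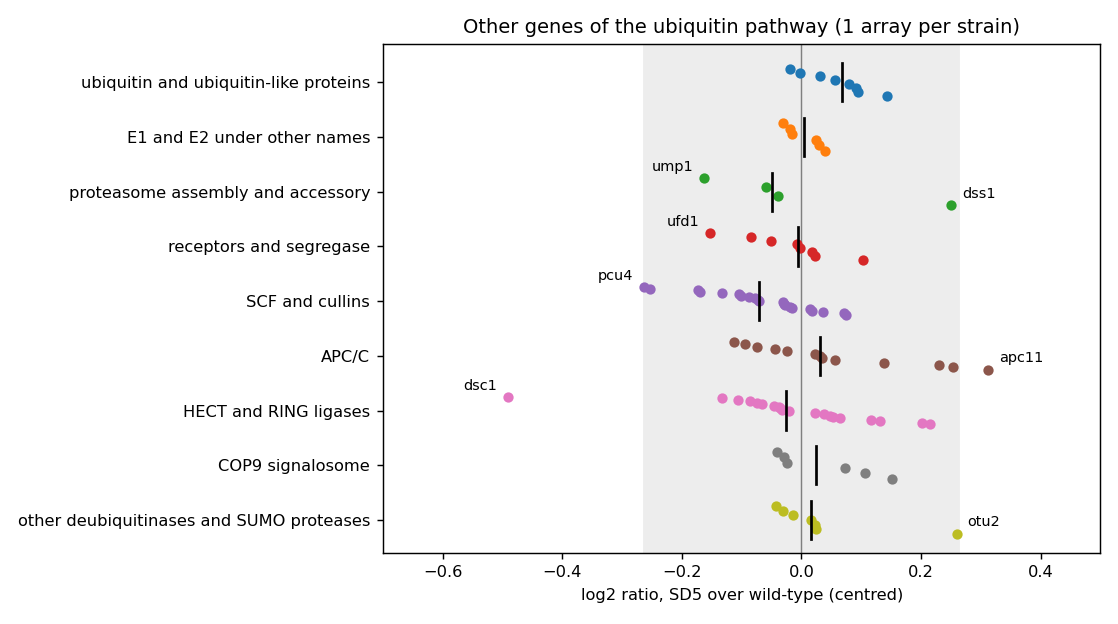
Log2 ratio of SD5 over wild-type for 93 further genes of the ubiquitin system (points) in 9 lists, with the median of each list (black bar) and the range within 1.2-fold (grey). Only dsc1 at -0.49 and apc11 at 0.31 lie outside the grey range.

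The order of the outer members was the same under the processing settings tried, but most of these settings could not have changed it. Other centring or background limits moved all members with a ratio by the same amount. The choice of probe set left members unchanged, since each had 1. Only quantile normalization, loess normalization and the pseudocount could reorder members. The gene rpt5 was the lowest member, ubp12 the second lowest and ubp10 the highest under the reported setting and all 9 alternatives. The ratio of rpt5 ran from -0.75 without centring to -0.51 with the background as a pseudocount, and that of ubp12 from -0.50 to -0.27. The number of members at least 1.2-fold lower was 12 without centring, when 26.9% of all named genes were too.

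**Figure D5:**
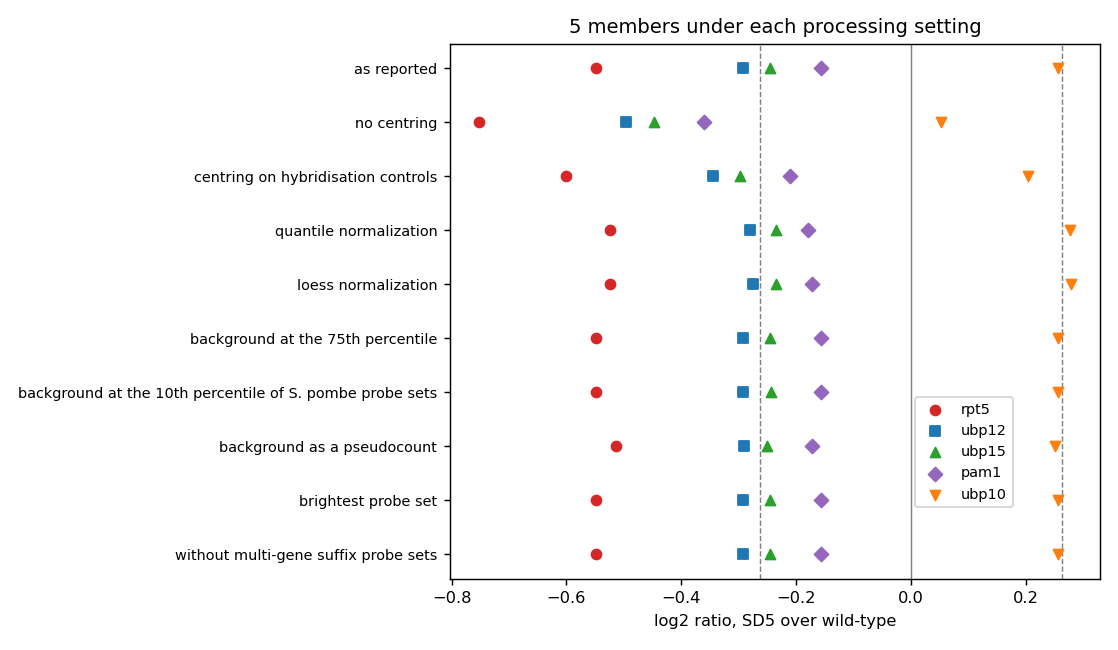
Log2 ratio of 5 members (symbols) under the reported setting and each of 9 alternatives; dashed lines mark 1.2-fold. The points of rpt5 lie between -0.75 and -0.51 and stay to the left of the others in every setting, while ubp10 crosses the upper line only after loess (0.28) and quantile normalization (0.28).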

How the data were processed

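The authors deposited 1 linear intensity value per probe set and array; GCOS 1.4 is listed in the submitters' processing notes without a stated role. How signals were scaled and probes summarised, and the build, are not stated in the labels or files. Per the labels' protocols, biotinylated cRNA was made from poly(A) RNA with a 3′ IVT kit. In both arrays 5748 of 10928 rows were 0 and were left out. Gene names came from the platform's annotation of probes and from RefSeq (ASM294v3), used for names and gene order only. Signals were floored at background and log2 ratios were centred on the median of S. pombe probe sets above background in both arrays. Robust SDs (scaled median absolute deviations) and medians were taken over these probe sets, named or not, in 20 classes of signal. Ranks within a class counted named genes only. Roles were assigned from symbols and textbook knowledge, since the reference gives no products. Alternatives changed the centring, normalization, background, choice of probe set and fold. Precision is limited by the number of arrays, 1 per strain. No test was made. A simulation with known folds checked the calculation. Named genes were all proteasome subunits, the 6 lowest and 6 highest members, and the 2 lowest and 2 highest genes of each role and list; members and other genes of known role (dsc2 to dsc5, cdc48, ubi4, ubi1, uba1 and mms2 among them) were added after their values were seen. Members, lists and folds were chosen with earlier results of these data known. Python 3.11.15, numpy 2.4.6, pandas 2.3.3 and statsmodels 0.14.6 were used.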

Additional observations from a re-analysis of the deposited data

How the results depend on the processing

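No paired analysis was possible because each strain had 1 array, and no replicate could be left out. Values depended mainly on centring. Without centring the median log2 ratio was -0.19 over the members, -0.18 for 20S alpha, -0.17 for 20S beta, -0.18 for ATPase, -0.21 for non-ATPase, -0.32 for E1, -0.19 for E2, -0.23 for ubp, -0.19 for UBX genes and -0.22 for the other pathway genes. At 1.2-fold, 12 members and 23 of the other pathway genes were then lower, and 0 of the latter higher. Centring on hybridisation controls gave 4 members lower, and 3 lower and 0 higher other pathway genes. Quantile and loess normalization each gave 1 member higher (ubp10), with 2 and 3 higher other pathway genes, and the background as a pseudocount gave 2. At 1.5-fold, 0 members were lower. Over all named genes, 91 were 1.2-fold lower and 73 higher as reported, 771 and 14 without centring, 154 and 48 with hybridisation controls, 64 and 125 with quantile normalization, 61 and 34 with background set to the 10th percentile of yeast signals, and 61 and 123 with a pseudocount. Single members moved by more than the robust SD of their signal class in 58 of 59 cases without centring, 4 with quantile normalization, and 1 each with loess and hybridisation controls. No called member changed sign, but 58 members were below 0 without centring against 27 as reported. At that background ubc12 gave no ratio. Signal over background limits dim members such as ubc12.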

Other observations

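Named genes around the outer members had ratios on both sides of 0. Within 10 protein-coding genes on either side of rpt5, 11 named genes had a median log2 ratio of 0.079, from -0.26 to 0.20. The lowest was pcu4, the cullin gene of the SCF and cullin list, 4 genes away, with 397 in wild-type cells and 287 in SD5. The kinesin gene pkl1, 2 genes away, had 414 and 386 (0.10), and the DNA polymerase alpha gene pol1, 5 genes away, had 247 and 246 (0.20). Around ubp12, near the end of chromosome III, 4 named genes had a median of -0.091, of which 3 were below 0, with tyr1 next to it at 3049 and 2549 (-0.055). Around ubp15 the median was -0.041 over 10 genes, and its neighbour git7 had 1807 and 1585 (0.014). The gene adl1, 4 genes from ubp15, was lower than ubp15 itself, at 138 and 97.1 (-0.31). Around ubp10 it was -0.015 over 11 genes, with stt4 on one side (0.032) and txl1 on the other (-0.015), and ratios from -0.25 to 0.099. Around ubc6 the median was 0.011 over 11 genes, from -0.23 for prp22, 3 genes away and as low as ubc6, to 0.19. Around pam1 it was -0.032 over 16 genes, from -0.13 to 0.30. These genes were chosen after the values of the members were seen.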
